A study of Mus musculus with 20 samples.

Results

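The data described here are the liver RNA levels of 33 type I interferon response genes in 10 chow-fed mice, 5 given a control antisense oligonucleotide against GFP (GFP LNA) and 5 given an antisense oligonucleotide against the small nucleolar RNA SNORA73 (SNORA73 LNA). The genes were taken as a list of mouse symbols, namely interferon-stimulated and antigen-processing genes without the GBP and IRG GTPases, by a rule that names genes and uses no cutoff on the values. All 33 symbols were found among the 53028 genes of the count table, and all 33 passed the filter on low counts in every comparison. The list holds 4 IFIT genes (Ifit1, Ifit2, Ifit3, Ifit3b), the ISG15 pair (Isg15, Usp18), 3 OAS genes (Oas1a, Oasl1, Oasl2), 8 other antiviral effectors (Rsad2, Cmpk2, Bst2, Zbp1, Ifi44, Xaf1, Rnf213, Trim30a), 3 RNA sensors (Ddx58, Ifih1, Dhx58), 4 transcription factors (Irf1, Irf7, Irf9, Stat2), 4 genes of peptide generation and transport (Psmb8, Psmb9, Psmb10, Tap1), 3 genes of the ADP-ribosylation machinery (Parp9, Parp14, Dtx3l) and the surface proteins Ly6a and Ly6e.

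Every mouse gave 2 poly(A)-selected libraries, 1 from total liver RNA (the transcriptome) and 1 from RNA recovered from polysome fractions of a sucrose gradient (the translatome). The mice were male C57BL/6J animals that received 3 injections of 3 mg/kg, for which the methods state an age of 8 weeks at injection and collection 2 days after the last dose in the chow diet experiment, but an age of 10 weeks for the polysome preparations. Per those methods, mice for liver polysomes also received cycloheximide, which arrests ribosomes on mRNA, through the tail vein before collection. GFP LNA mice carry the numbers 1, 2, 3, 8 and 9 and SNORA73 LNA mice the numbers 4, 6, 10, 11 and 12, and values below follow that order. The sample labels spell the target of the second LNA Snora37, whereas the study's methods name SNORA73. An LNA carries locked nucleic acid bases that strengthen its pairing with the target. All values below are averages over the whole liver.

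Type I interferons bind the receptor formed by Ifnar1 and Ifnar2, and the signal runs through Janus kinases to a complex with STAT2 and IRF9, which binds the interferon-stimulated response element (ISRE) in the promoters of responding genes. The proteins made in turn sense viral RNA, block its translation, tag proteins with ISG15, restrict virus release and trim peptides for display on MHC class I. In liver, hepatocytes, Kupffer cells and sinusoidal endothelial cells all carry the receptor, and many of the genes are transcribed at a low level without infection. Irf1, Psmb8, Psmb9, Psmb10 and Tap1 respond strongly to interferon gamma too, which acts at promoter sequences called GAS elements.

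The oligonucleotides that define the groups are printed first, 5′ to 3′ with the locked bases in capitals. The study lists a pair of LNAs against SNORA73, and its text names the second, SNORA73-2, for the later experiments in mice. The labels of the sequenced livers do not say which of them was injected.
SNORA73 LNA 1: AAGTCgtaggaatatGCAGG
SNORA73 LNA 2: GACTCtgagaagtcgTAGGA
GFP LNA: TCACCttcaccctctCCACT
Each is 20 bases long with 10 locked bases, 5 at either end in the capitals above.

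The promoter windows of the genes (RefSeq, GRCm38.p6, 250 bases before to 50 after each annotated start) were searched on both strands for the ISRE core (GAAA, any 2 bases, GAAA) and the GAS core (TTC, any 3 bases, GAA). A window was at hand for 26 of the 33 genes, all but Usp18, Zbp1, Dhx58, Parp9, Parp14, Ly6a and Ly6e. The ISRE core was found in 11 of the 26 (42.3%), against 1079 of 27025 genes with a window (3.99%). The GAS core was found in 5 of the 26 (19.2%), against 9.55% of all genes. Windows from genes that carry the results below are shown, with the core in capitals. An ISRE core on the strand opposite to the gene reads TTTC, 2 bases, TTTC in the printed strand.
Isg15, chr4:156200865-156200894, minus strand: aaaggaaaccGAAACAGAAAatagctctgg
Ifit1, chr19:34640794-34640823, plus strand: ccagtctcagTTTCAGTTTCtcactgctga
Rsad2, chr12:26456553-26456582, minus strand: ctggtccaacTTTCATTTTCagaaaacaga
Stat2, chr10:128270266-128270295, plus strand: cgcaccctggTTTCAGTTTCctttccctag
Bst2, chr8:71537577-71537606, minus strand: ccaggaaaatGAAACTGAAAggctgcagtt
Psmb8, chr17:34198088-34198117, plus strand: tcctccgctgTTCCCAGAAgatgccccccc
The Isg15 core shown starts 66 bases before the annotated start, and cores that overlap it or each other start at -72 and -78. The core shown for Ifit1 starts at -85, with another at -104. Psmb8 is shown for its GAS core, which starts at -97. A match describes these letters and was not tested as a binding site, and 15 of the 26 windows hold no ISRE core.

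Several of the genes are neighbours. Ifit2, Ifit3, Ifit3b and Ifit1 lie in this order on chromosome 19, Psmb9, Tap1 and Psmb8 side by side on chromosome 17, Rsad2 and Cmpk2 12664 bases apart on chromosome 12, and Parp14, Dtx3l and Parp9 in a row on chromosome 16, where the spans of Dtx3l and Parp9 overlap by 558 bases. Counts of Ifit3 and Ifit3b, of the Oas1 and Trim30 genes, of the Ly6 genes and of the overlapping pair Dtx3l and Parp9 are uncertain, because the counting program shares reads among the transcripts they fit. The methods describe reversely stranded reads, but whether the counting used strand is not given in the sources used here.

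Total RNA libraries held 20005389 to 42023390 counts and polysome libraries 14852951 to 33824659. The lowest count of any of the 33 genes was 27 in a total RNA library and 6 in a polysome library. Markers of hepatocytes stood at a summed 42400 to 69700 CPM (counts scaled by library size) in total RNA, and no gene of the 10 cell type lists checked was at 0 throughout a group. The targeted snoRNA could not be checked in these poly(A) libraries, where Snora73a reached at most 2 counts and Snora73b at most 4. The authors excluded a mouse of each group on principal components, without naming it. These mice were taken here to be GFP LNA mouse 9 and SNORA73 LNA mouse 10 by matching fold changes, as described under the processing. Mouse 10 stands apart in many of the 33 genes. Their total RNA fold changes are therefore given over 10 mice and over the 8 mice without 9 and 10. Other values are over 10 mice unless stated. The mice left out were chosen by the study on these same libraries, so the 8 mice are not independent evidence.

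In total RNA, none of the 33 genes passed the test between SNORA73 LNA and GFP LNA over 10 mice. The edgeR quasi-likelihood test called 0 of them at an FDR under 0.05, the call being higher from a log2 fold change of 0.5 upwards and lower below 0. Of all 13195 genes tested, 4 were higher (0.0303%) and 0 lower (0%). Before adjustment, Usp18 and Ly6a, 2 of the 33, had a p under 0.05, both with lower levels in SNORA73 LNA livers, as did 3.69% of all genes. Limma-voom called 0 of the 33 and DESeq2 called 1, Ly6a, with 36 higher and 21 lower (0.159%) of all genes by that tool. The log2 fold change (SNORA73 LNA minus GFP LNA) was under 0 for 24 of the 33 genes, with a median of -0.11, and under 0 for 48.3% of all genes, with a median of 0.01.

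Over the 8 mice, 4 of the 33 genes were lower with SNORA73 LNA, namely Ifit1, Isg15, Zbp1 and Ly6a. Among all 13017 genes tested, 21 were lower (0.161%) and 72 higher (0.553%), so these 4 made up 4 of the 21. The fold change was under 0 for 31 of the 33 genes, with a median of -0.40 (48.7% of all genes were under 0), where Irf1 (0.11 ± 0.14, SE) and Psmb10 (0.05 ± 0.14) had values above 0. An unadjusted p under 0.05 was reached by 16, all with lower levels (5.05% of all genes in that direction), and in 11 the values of the groups did not overlap (3.17%). A bulk library cannot tell fewer cells of a type from less of an RNA in each cell.

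**Figure D1:**
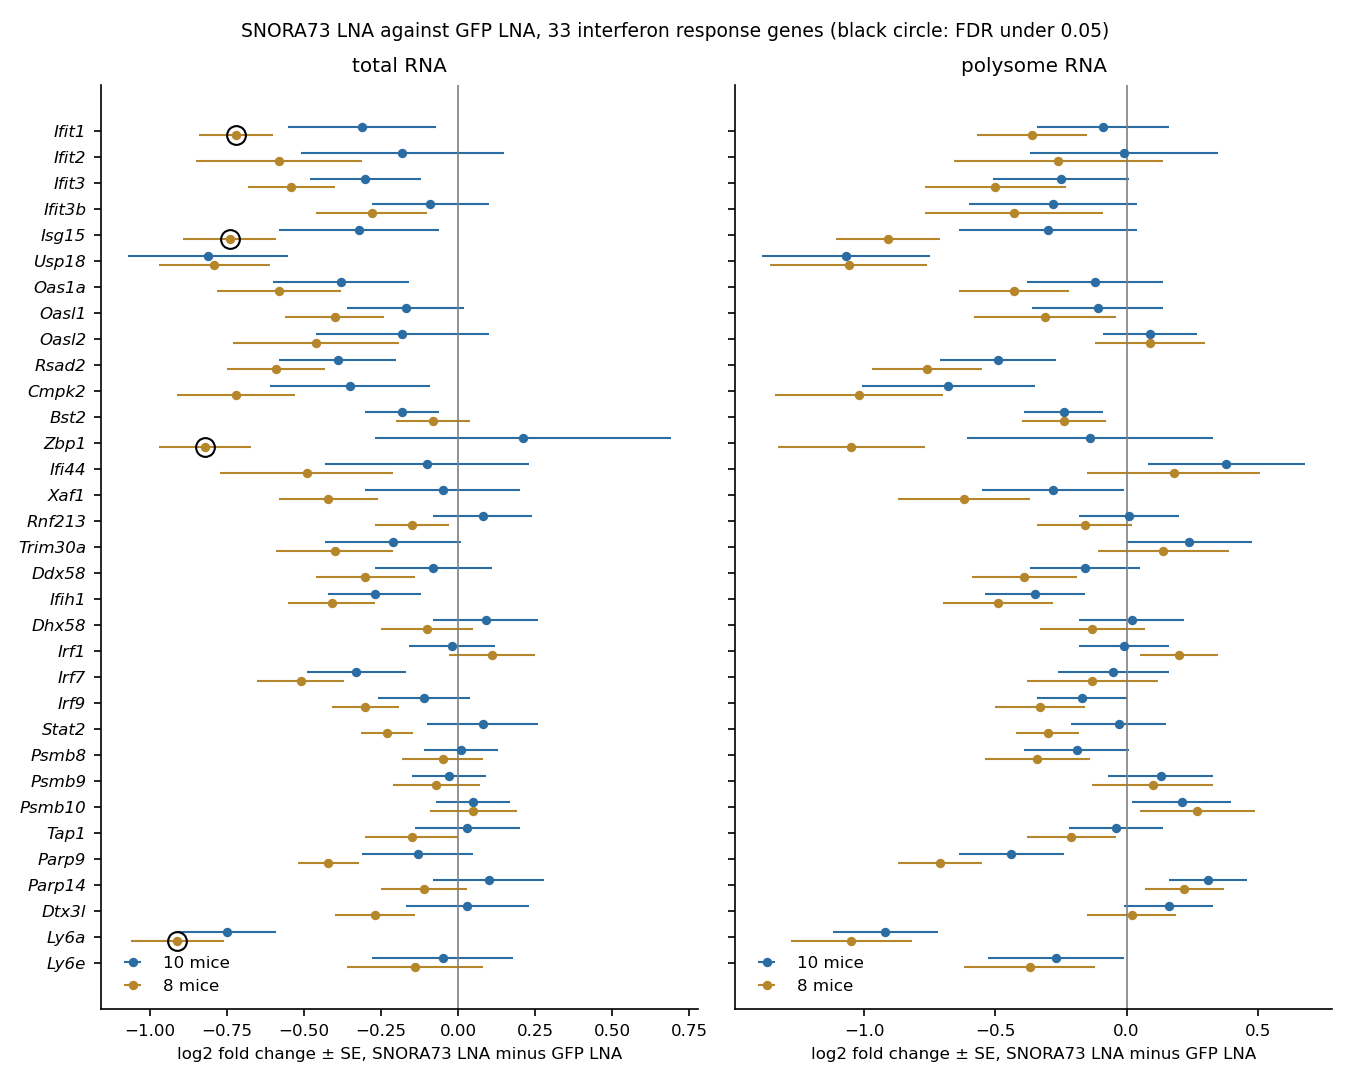
The log2 fold change with its SE (x axis, SNORA73 LNA minus GFP LNA) is plotted for each of the 33 genes (y axis) in total RNA on the left and polysome RNA on the right, over 10 mice in blue and over 8 mice in ochre, with a black circle around values at an FDR under 0.05. The circled genes are Ifit1, Isg15, Zbp1 and Ly6a over 8 mice in total RNA, and Zbp1 moves from 0.21 over 10 mice to -0.82 over 8.

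Ly6a, the gene of the surface antigen Sca-1, gave the clearest separation. Its total RNA level was 12.3, 12.9, 14.9, 11.1 and 9.05 CPM in the GFP LNA mice and 8.41, 7.40, 8.71, 5.46 and 5.99 CPM in the SNORA73 LNA mice. Every SNORA73 LNA value lay below every GFP LNA value, mice 9 and 10 included, and Ly6a was the only one of the 33 genes with such a pattern over 10 mice in total RNA (0.705% of all genes). The means were 12.06 ± 2.18 and 7.195 ± 1.44 CPM (SD, n = 5 each), which gave a log2 fold change of -0.75 ± 0.16 (SE) with an FDR of 0.235 by edgeR. It passed over 8 mice (-0.91 ± 0.15, FDR 0.0246), without GFP LNA mouse 9 alone (-0.85, FDR 0.0376) and with DESeq2 over 10 mice (-0.76, FDR 0.00606). Over 10 mice Ly6a did not pass with limma-voom, the DESeq2 size factors, library totals, no filter or the single fit of 20 libraries. Nor did it pass when any other single mouse was left out. Sca-1 is also a marker of endothelial cells, and the summed level of 6 endothelial markers (Stab2, Lyve1, Clec4g, Pecam1, Kdr and Ptprb) ranged from 115 to 142 CPM in GFP LNA and from 141 to 153 CPM in SNORA73 LNA total RNA, with medians of 119 and 145 CPM. The part of these markers in the Ly6a values was not tested. Ly6e, a related surface protein that limits virus entry, ran from 96.4 to 233 CPM with mouse 10 highest and mouse 11 lowest, and the groups overlapped: 121, 135, 212, 169.5 and 204 CPM in GFP LNA and 196, 154, 233, 96.4 and 129.5 CPM in SNORA73 LNA mice. Its fold change was -0.05 ± 0.23 (FDR 0.973) over 10 mice and -0.14 ± 0.22 over 8.

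Ifit1, whose protein binds viral RNA that lacks cap methylation and stops its translation, stood at 14.6, 20.04, 19.3, 18.7 and 9.92 CPM in the GFP LNA mice and at 12.3, 10.5, 22.7, 10.8 and 10.6 CPM in the SNORA73 LNA mice. In each group 1 mouse lay away from the rest, mouse 9 below and mouse 10 above, and without them the lowest GFP LNA value was above the highest SNORA73 LNA value. The log2 fold change was -0.31 ± 0.24 (FDR 0.783) over 10 mice and -0.72 ± 0.12 (FDR 0.0246) over 8. Ifit3, which binds and steadies IFIT1, read 9.89, 11.4, 14.4, 15.4 and 8.98 CPM against 9.16, 9.48, 13.9, 8.02 and 8.46 CPM. The same mice were at the edges, and the fold change was -0.30 ± 0.18 over 10 mice and -0.54 ± 0.14 (FDR 0.145) over 8. Ifit2 and Ifit3b ranged from 1.35 to 5.43 CPM, with fold changes of -0.18 ± 0.33 and -0.09 ± 0.19 over 10 mice. Over 8 mice these were -0.58 ± 0.27 and -0.28 ± 0.18.

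Isg15, the ubiquitin-like protein that is attached to other proteins, read 15.02, 15.9, 19.9, 19.7 and 10.3 CPM in GFP LNA and 12.5, 8.68, 22.8, 11.9 and 9.21 CPM in SNORA73 LNA mice. Mouse 10 was the highest of all 10, and mouse 9 lay within the range of the other SNORA73 LNA mice. The fold change went from -0.32 ± 0.26 (FDR 0.792) to -0.74 ± 0.15 (FDR 0.0482) when mice 9 and 10 were left out. Usp18, the protease that removes ISG15 and restrains the receptor at Ifnar2, behaved unlike Isg15 in mouse 9, where it was highest of all: 9.27, 10.97, 13.5, 14.3 and 22.2 CPM in GFP LNA and 7.03, 8.72, 12.4, 5.06 and 6.76 CPM in SNORA73 LNA mice. The groups overlapped through mouse 10 (12.4 CPM) and the GFP LNA mice 1 and 2. Its log2 fold change was the most negative of the 33 over 10 mice, -0.81 ± 0.26 (FDR 0.378), and was -0.79 ± 0.18 (FDR 0.0826) over 8.

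OAS enzymes such as OAS1A answer double-stranded RNA by making the 2-5A messenger that turns on RNase L. Oasl1, an OAS-like protein, read 7.29, 6.11, 8.20, 9.40 and 6.04 CPM in GFP LNA mice and 6.98, 5.71, 9.61, 4.46 and 6.27 CPM in SNORA73 LNA mice. Its fold change was -0.17 ± 0.19 over 10 mice and -0.40 ± 0.16 (FDR 0.367) over 8. Oasl2 read 2.43, 2.49, 4.11, 5.67 and 2.57 CPM in GFP LNA and 2.98, 2.91, 4.63, 2.16 and 2.55 CPM in SNORA73 LNA mice, with overlapping groups. Its fold change was -0.18 ± 0.28 over 10 mice and -0.46 ± 0.27 over 8. Oas1a gave -0.38 ± 0.22 over 10 mice and -0.58 ± 0.20 over 8, and none of the 3 passed over 10 or 8 mice.

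Among the other antiviral effectors, Zbp1, a sensor of Z-form nucleic acid that can start necroptosis, depended most on 1 mouse. It read 6.84, 8.46, 9.01, 7.74 and 3.84 CPM in the GFP LNA mice and 5.54, 4.64, 23.8, 4.71 and 3.44 CPM in the SNORA73 LNA mice. Mouse 10 exceeded every other mouse, the next highest being GFP LNA mouse 3 at 9.01 CPM. The fold change was 0.21 ± 0.48 (FDR 0.935) over 10 mice, -0.66 without mouse 10 alone and -0.82 ± 0.15 (FDR 0.0396) over 8. Bst2 (tetherin), which holds budding virus at the cell surface, read 114, 105, 121, 97.1 and 127 CPM and 121, 104, 87.2, 101.9 and 84.7 CPM and did not follow mouse 10, with a fold change of -0.18 ± 0.12 over 10 mice. Its value over 8 mice was -0.08 ± 0.12. Rnf213, a very large ubiquitin ligase, read 34.2, 37.5, 46.6, 45.6 and 30.9 CPM and 39.4, 35.8, 58.6, 33.4 and 39.4 CPM. Mouse 10 was again highest, and the fold change was 0.08 ± 0.16 over 10 mice and -0.15 ± 0.12 over 8. The neighbours Rsad2 (viperin, a radical SAM enzyme that makes a chain-terminating nucleotide) and Cmpk2 (a mitochondrial nucleotide kinase) had fold changes of -0.39 ± 0.19 and -0.35 ± 0.26 over 10 mice and of -0.59 ± 0.16 and -0.72 ± 0.19 over 8, at FDR 0.163 and 0.138. Ifi44, Xaf1 and Trim30a ranged from -0.21 to -0.05 over 10 mice and from -0.49 to -0.40 over 8.

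The cytosolic RNA sensors are the helicases RIG-I (Ddx58), MDA5 (Ifih1) and LGP2 (Dhx58). Ddx58 read 11.4, 15.5, 18.8, 18.2 and 12.1 CPM in GFP LNA and 12.04, 13.7, 20.1, 10.8 and 15.2 CPM in SNORA73 LNA mice. Its fold change was -0.08 ± 0.19 over 10 mice and -0.30 ± 0.16 over 8. Ifih1 read 19.02, 25.8, 24.2, 25.5 and 20.2 and 16.7, 17.3, 24.6, 14.8 and 21.8 CPM, and its fold change was -0.27 ± 0.15 over 10 mice and -0.41 ± 0.14 (FDR 0.251) over 8. In both sensors mouse 11 was the lowest of all 10 and the groups overlapped. Dhx58 gave 0.09 ± 0.17 over 10 mice and -0.10 ± 0.15 over 8.

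Of the factors that carry the signal to DNA, Stat2 read 31.2, 30.2, 31.9, 30.4 and 23.2 CPM in GFP LNA mice and 26.8, 28.3, 49.6, 23.9 and 26.2 CPM in SNORA73 LNA mice. Mouse 9 lay below and mouse 10 above all others, and the 8 remaining mice separated with the SNORA73 LNA values lower. The fold change was 0.08 ± 0.18 over 10 mice and -0.23 ± 0.085 (FDR 0.302) over 8. Irf9, the DNA-binding partner of STAT2, read 19.5, 20.3, 22.9, 20.7 and 14.04 CPM and 17.1, 18.3, 22.9, 13.9 and 18.3 CPM. Its fold change was -0.11 ± 0.15 over 10 mice and -0.30 ± 0.11 (FDR 0.291) over 8. Irf7, which amplifies interferon production, gave -0.33 ± 0.16 and -0.51 ± 0.14 (FDR 0.145), while Irf1, a factor of the interferon gamma response, gave -0.02 ± 0.14 and 0.11 ± 0.14.

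The immunoproteasome subunits replace their constitutive counterparts in the proteasome and favour peptides that fit MHC class I. Psmb8 read 19.5, 20.7, 26.6, 19.5 and 22.01 CPM in GFP LNA and 22.1, 21.2, 25.5, 17.4 and 22.8 CPM in SNORA73 LNA mice. Psmb10 read 17.4, 22.8, 21.9, 14.8 and 18.7 and 19.6, 21.4, 19.5, 21.2 and 17.5 CPM. The groups overlapped throughout in both, and mouse 10 was no outlier. The 4 fold changes of Psmb8, Psmb9, Psmb10 and the peptide transporter Tap1 ran from -0.03 to 0.05 over 10 mice and from -0.15 to 0.05 over 8, with SEs of 0.12 to 0.17.

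Parp9 and Dtx3l form a complex that adds ubiquitin and ADP-ribose in interferon signalling. Parp9 read 29.2, 29.99, 30.3, 36.8 and 20.4 CPM in GFP LNA mice and 24.98, 22.2, 39.6, 23.01 and 24.4 CPM in SNORA73 LNA mice. It had the same shape as Stat2, with mouse 9 low, mouse 10 high and no overlap of the other 8, and its fold change was -0.13 ± 0.18 over 10 mice and -0.42 ± 0.099 (FDR 0.105) over 8. Dtx3l read 54.7, 47.9, 45.8, 60.6 and 39.6 and 46.8, 37.7, 80.1, 51.7 and 37.8 CPM, and its fold change was 0.03 ± 0.20 and -0.27 ± 0.13. Parp14 gave 0.10 ± 0.18 over 10 mice and -0.11 ± 0.14 over 8.

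**Figure D2:**
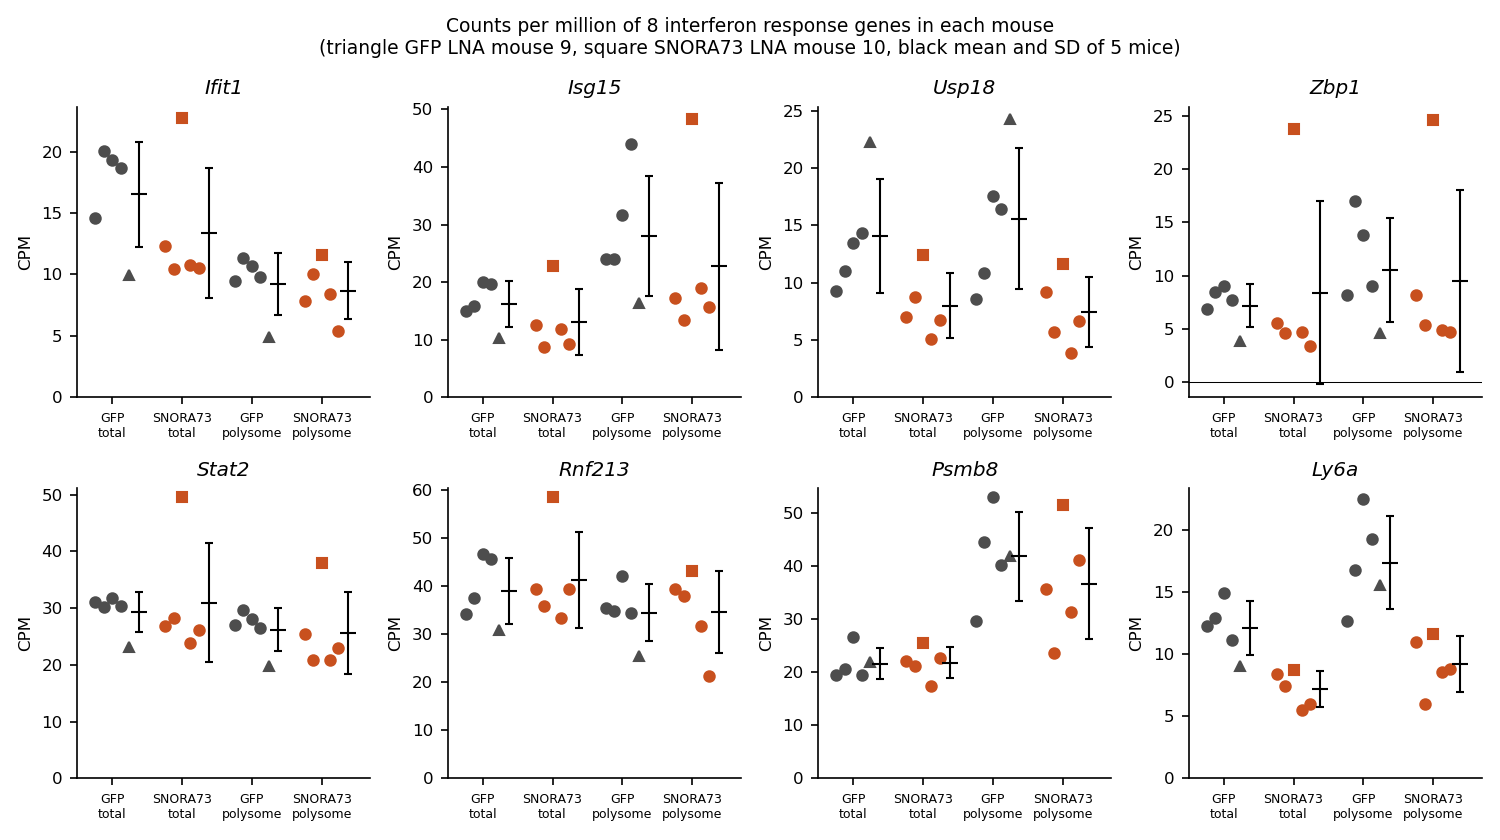
CPM (y axis, linear, TMM-normalized) of 8 of the genes is plotted for every mouse by LNA and RNA (x axis), with a triangle for GFP LNA mouse 9, a square for SNORA73 LNA mouse 10, circles for the other mice, and the mean and SD of the 5 mice of a group in black. The square is the highest SNORA73 LNA point in every panel and RNA, and for Ly6a all SNORA73 LNA points, the square included, lie below all GFP LNA points of the same RNA.

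In polysome RNA, 0 of the 33 genes were called over 10 mice by edgeR and limma-voom, where 2 of 13060 genes were higher (0.0153%) and 0 lower (0%). DESeq2 called 2 as lower, Usp18 and Ly6a, with 217 higher and 50 lower (0.383%) of all genes by that tool. Before adjustment, 4 of the 33, Usp18, Rsad2, Parp9 and Ly6a, had a p under 0.05, all with lower levels (5.32% of all genes). The fold change was under 0 for 24 of the 33, with a median of -0.12 against -0.01 for all genes, of which 51.4% were under 0. Over the 8 mice, 0 of the 33 were called, 4 of 12825 genes being lower (0.0312%), although 10 had an unadjusted p under 0.05 with lower levels (4.95%) and the groups did not overlap in 7 (3.63%), namely Isg15, Rsad2, Cmpk2, Zbp1, Stat2, Parp9 and Ly6a. The median was -0.33 and 25 of the 33 values were under 0 (50.6% of all genes).

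Ly6a was again the single gene of the list whose groups did not overlap over 10 mice (1.09% of all genes). In polysome RNA it read 12.7, 16.7, 22.5, 19.3 and 15.6 CPM in GFP LNA mice and 10.99, 6.00, 11.6, 8.52 and 8.79 CPM in SNORA73 LNA mice. The means were 17.3 ± 3.73 and 9.18 ± 2.23 CPM (SD, n = 5 each), a fold change of -0.92 ± 0.20 (SE, FDR 0.104), and it passed with DESeq2 (FDR 0.00331), without the filter on low counts (FDR 0.0352) and in a single fit of all 20 libraries (FDR 0.0152). Over 8 mice Ly6a did not pass (-1.05 ± 0.23, FDR 0.0995). Nor did it pass with limma-voom, the DESeq2 size factors or library totals, or when any single mouse was left out. Endothelial markers summed to 93.4 to 105 CPM in GFP LNA and 121 to 138 CPM in SNORA73 LNA polysome RNA, with no overlap. Their part in the Ly6a values was not tested here either.

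Usp18 read 8.61, 10.9, 17.6, 16.4 and 24.3 CPM in GFP LNA and 9.22, 5.71, 11.6, 3.88 and 6.67 CPM in SNORA73 LNA polysome RNA. Mouse 9 was highest and mouse 11 lowest, as in total RNA, and the fold change was -1.07 ± 0.32 (FDR 0.196) over 10 mice and -1.06 ± 0.30 (FDR 0.174) over 8. Isg15 read 24.1, 24.1, 31.7, 43.96 and 16.4 CPM and 17.2, 13.3, 48.4, 19.01 and 15.8 CPM, where mouse 10 was highest of all and the other 4 SNORA73 LNA values ran from 13.4 to 19.0 CPM. Its fold change was -0.30 ± 0.34 over 10 mice and -0.91 ± 0.20 (FDR 0.0997) over 8. For Zbp1 the values were 8.20, 17.1, 13.8, 9.05 and 4.65 CPM and 8.17, 5.32, 24.6, 4.86 and 4.69 CPM, and the fold change went from -0.14 ± 0.47 to -1.05 ± 0.28 (FDR 0.145). Ifit1 overlapped between groups even without mice 9 and 10, at 9.43, 11.3, 10.7, 9.79 and 4.94 CPM and 7.87, 10.1, 11.6, 8.41 and 5.42 CPM, with a fold change of -0.36 ± 0.21 (FDR 0.471) over 8 mice.

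Single animals stood out across the list. SNORA73 LNA mouse 10 had the highest value of all 10 mice in 18 of the 33 genes in total RNA, where it was highest for 19.2% of all genes, and in 12 of the 33 in polysome RNA (11.6%). Within its group it was highest in 29 and 26 of the 33 (28.9% and 19.3% of all genes). Averaged over the 33 genes its log2 deviation from the mean of 10 mice was 0.49 in total and 0.42 in polysome RNA. SNORA73 LNA mouse 11 was at the other end, with the lowest value in 17 of the 33 in total RNA (12.9% of all genes) and 9 in polysome RNA (17.4%). GFP LNA mouse 9 was lowest of its group in 17 of the 33 in total RNA (25.9%) and in 16 in polysome RNA (26.2%).

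By role, mouse 10 deviated most in the antiviral effectors (0.70 in total RNA), the PARP and Dtx3l group (0.64) and the IFIT genes (0.61), and least in the immunoproteasome group (0.15). Mouse 9 was below the mean in the IFIT genes (-0.23) and above it in the ISG15 pair (0.35), of which Usp18 was highest in this mouse. Both libraries of an animal came from 1 liver, and the same mouse was highest in both for 19 of the 33 genes (33% of all genes) and lowest in both for 13 (29.4%).

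**Figure D3:**
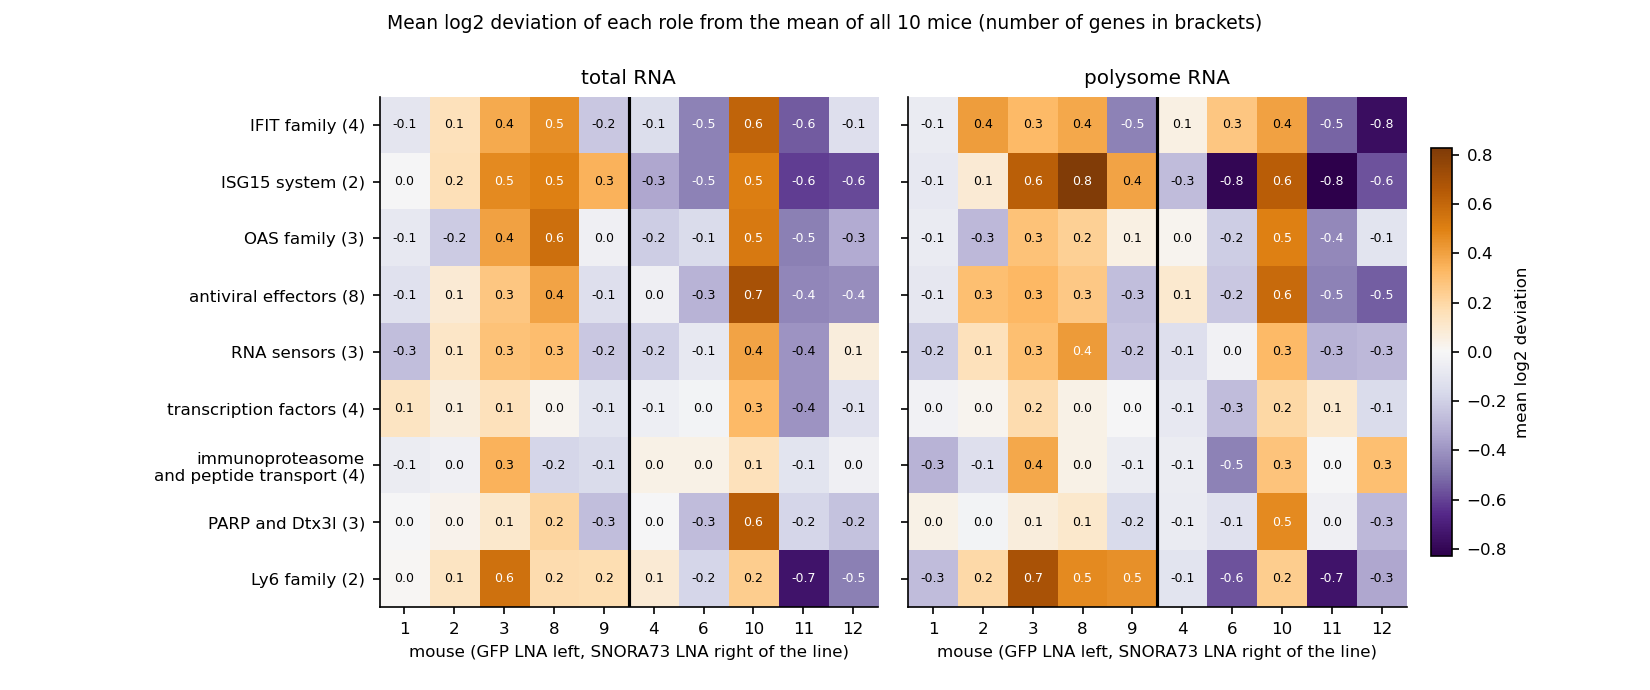
Each cell gives the mean log2 deviation of a group of genes (rows, with the number of genes) from the mean of all 10 mice, for each mouse (columns, GFP LNA left and SNORA73 LNA right of the line), in total RNA on the left and polysome RNA on the right, on a scale from purple (below) to orange (above). Mouse 10 is above the mean in every row of both panels, at 0.70 in the antiviral effectors in total RNA, whereas mice 3 and 8 are the GFP LNA mice with the strongest orange.

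Markers of other cells moved with mouse 10. The summed level of 8 Kupffer cell markers was 293 CPM in its total RNA, against 164 to 267 CPM in the GFP LNA mice, where mouse 9 was highest, and 5 monocyte markers summed to 15.7 CPM there. For 5 neutrophil markers the sum was 15.0 CPM in total and 30.7 CPM in polysome RNA of mouse 10, where the GFP LNA mice reached at most 8.32 and 13.2 CPM. Hepatocyte markers were at 42900 CPM in mouse 10 and 42400 CPM in mouse 9, the lowest of their groups. T and NK cell markers summed to 3.47 CPM in mouse 10, within the 2.27 to 4.99 CPM of the GFP LNA mice. Cholangiocyte markers were highest of their groups in both mouse 10 (24.1 CPM, group median 9.33 CPM) and mouse 9 (25.6 CPM, group median 14.8 CPM), while stellate cell markers were lowest of the group in mouse 10 (231 CPM) and highest of the group in mouse 9 (356 CPM). No marker of these lists was at 0 throughout a group, and their part in the interferon response values was not tested.

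The genes upstream of the list were near the floor or did not pass the test. Of 9 interferon genes in the table, 0 passed the filter in either RNA, and no interferon gene had more than 5 counts in any library. Both receptor chains were measured: Ifnar1 had means of 12.4 and 12.4 CPM in GFP LNA and SNORA73 LNA total RNA (0.01 ± 0.13), and Ifnar2 had 65.8 and 70.4 CPM (0.10 ± 0.092). Over 10 mice, none of the 5 receptor, 20 signalling and 6 inhibitor genes tested in total RNA was called in either direction. Stat3, the signalling gene with the highest level, gave 0.33 ± 0.23 (FDR 0.738), and Usp15 among the inhibitors 0.09 ± 0.10. At an unadjusted p under 0.05 stood 0, 1 and 0 genes of the 3 lists, the 1 being Jak1 with a higher level (0.38 ± 0.14, FDR 0.439). With lower levels 0 genes of these lists had such a p, as did 3.69% of all genes.

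A wider set of 54 tested interferon-stimulated genes outside the list had 0 called by edgeR over 10 mice in total RNA (3 with an unadjusted p under 0.05), 34 with a fold change under 0 and a median of -0.05. Of all genes, 3.69% had such a p with lower levels, as these 3 did, and 48.3% were under 0. Over 8 mice 0 of 53 were called (10 before adjustment, all lower), 42 were under 0 and the median was -0.19. Of all genes, 5.05% were lower before adjustment and 48.7% were under 0. Ifitm3, which blocks virus entry at endosomes and had the highest level of that set, gave 0.17 ± 0.16. The 15 antigen-processing genes outside the list had a median of 0.02, with B2m, the light chain of MHC class I, at -0.07 ± 0.14. The GBP and IRG GTPases, which attack the vacuoles of intracellular pathogens, had 14 of 16 values under 0 with a median of -0.17, and over the 8 mice 3 of them were lower, Gbp6 (-1.01 ± 0.088, FDR 0.0010), Gbp10 (-1.43 ± 0.19, FDR 0.00994) and Irgm2 (-0.49 ± 0.095, FDR 0.0421), against 4 of the 33. Of all genes, 48.3% were under 0 over 10 mice and 0.161% were called lower over 8. Iigp1, the GTPase with the highest level, gave -0.13 ± 0.17 over 10 mice. In polysome RNA none of these lists had a called gene by edgeR over 10 or 8 mice, and over 10 mice 5 of the 54 interferon-stimulated genes, 2 of the 15 antigen-processing genes and 0 of 15 GTPases had an unadjusted p under 0.05. Those counts take in both directions, with Calr and Eif2ak2 among the genes with higher levels. Among all genes, 5.32% had such a p with lower levels alone, and the share over both directions is not given here.

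Polysome RNA was then compared with total RNA, in which a higher level means that more of the mRNA sat in polysomes relative to the average gene. In GFP LNA livers 5 of the 33 genes were higher in polysomes, Bst2, Psmb8, Psmb10, Psmb9 and Ly6a, and 9 lower, Ifi44, Ifit2, Rsad2, Ifit1, Trim30a, Cmpk2, Irf7, Dtx3l and Ifih1. Of all 13795 genes tested, 21.8% were higher and 21.0% lower at an FDR under 0.05 (42.8% together), so that the 14 of 33 called were close to the share of all genes. Without GFP LNA mouse 8, 8 were called, with 34.6% of all genes. In SNORA73 LNA livers 4 were higher and 6 lower (19.7% and 18.2% of all genes, 38.0% together). With the mouse as a replicate block, which pairs the libraries of each liver, the counts rose to 11 higher and 12 lower in GFP LNA (28.9% and 27.2%) and to 8 higher and 12 lower in SNORA73 LNA (26.0% and 25.1%). Over the 8 mice without the block, 14 and 13 of the 33 were called in GFP LNA and SNORA73 LNA, where 39.1% and 36.2% of all genes were. Higher in both groups were Bst2, Psmb8, Psmb9 and Psmb10 (16.2% of all genes were), lower in both were Ifit2, Rsad2, Cmpk2, Ifi44 and Ifih1 (15.5%), and 30 of the 33 had the same sign in both (85.8%). With the replicate block, 7 were higher in both groups (22.5% of all genes), Isg15, Dhx58 and Xaf1 in addition, and 11 lower in both (21.1%), with Ifit1, Ddx58, Dtx3l, Irf7, Irf9 and Stat2 in addition.

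The 3 immunoproteasome subunits were all higher in polysome RNA. The log2 ratio of polysome to total RNA of Psmb8 was 0.59, 1.05, 0.92, 1.0 and 0.92 in the GFP LNA mice and 0.66, 0.14, 1.0, 0.80 and 0.80 in the SNORA73 LNA mice. All 10 mice were above 0, and the fitted values were 0.91 ± 0.17 (SE, FDR 0.00024) and 0.71 ± 0.17 (FDR 0.00242). Psmb10 gave 0.64 ± 0.16 and 0.80 ± 0.16, and Psmb9 gave 0.48 ± 0.17 (FDR 0.0263) and 0.65 ± 0.17. Psmb9 was not called in GFP LNA over the 8 mice (0.41, FDR 0.122). Their 3 constitutive counterparts Psmb5, Psmb6 and Psmb7 were higher in polysome RNA as well, at 0.65 to 0.86 in GFP LNA and 0.52 to 0.91 in SNORA73 LNA. Tap1, next to Psmb8 on the chromosome, gave 0.23 ± 0.18 and 0.17 ± 0.18.

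Bst2 had the highest value of the list in both groups. Its log2 ratio was 0.79, 0.85, 0.88, 1.33 and 0.96 in GFP LNA and 0.83, 0.47, 1.29, 1.0 and 0.89 in SNORA73 LNA mice. The fitted values were 0.96 ± 0.13 (FDR 8.07e-06) and 0.90 ± 0.13 (FDR 2.17e-05). Its polysome levels were 199, 196, 234, 251 and 248 CPM and 220.2, 146, 216, 211 and 164 CPM. Isg15 was above 0 in all 10 mice, from 0.43 to 1.11. It was called only with the replicate block (0.71 ± 0.099, FDR 2.63e-05, and 0.70 ± 0.10, FDR 5.91e-05) or over the 8 mice. Over 10 mice without the block the SE was wider (0.75 ± 0.33, FDR 0.074). Ly6a gave 0.48 ± 0.18 (FDR 0.0362) in GFP LNA and 0.32 ± 0.19 in SNORA73 LNA, and was not called in GFP LNA over the 8 mice (0.40, FDR 0.0956).

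Rsad2 and its neighbour Cmpk2 were lower in polysomes than in total RNA in both groups. The ratio of Rsad2 was -1.02, -0.92, -0.87, -1.06 and -1.39 in GFP LNA and -1.14, -1.04, -1.14, -1.19 and -1.23 in SNORA73 LNA mice. The fitted values were -1.04 ± 0.21 (FDR 0.000466) and -1.13 ± 0.21 (FDR 0.000308), and those of Cmpk2 -0.78 ± 0.31 (FDR 0.0493) and -1.10 ± 0.32 (FDR 0.0105). Ifi44, a low-level cytoplasmic protein gene, gave -1.14, -0.98, -1.74, -2.21 and -1.72 and -0.80, -0.59, -1.57, -1.0 and -1.36 per mouse and -1.61 ± 0.31 (FDR 0.000317) and -1.12 ± 0.32 (FDR 0.00771) in the fit.

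The IFIT genes share a locus and had unequal values between the RNAs, a difference among genes that was not tested. Ifit1 was at -0.88 ± 0.25 (FDR 0.00797) in GFP LNA and -0.64 ± 0.26 (FDR 0.0532, and 0.000657 with the replicate block) in SNORA73 LNA, and Ifit2 at -1.14 ± 0.35 and -0.96 ± 0.36 (FDR 0.0114 and 0.0391, the latter 0.0972 over 8 mice). Ifit3 was close to 0, at -0.09 ± 0.23 and -0.04 ± 0.24, and was not called with the block either. Among the RNA sensors, Ifih1 was lower in both groups (-0.45 ± 0.17 and -0.52 ± 0.18), Ddx58 only with the block (-0.36 ± 0.089 and -0.43 ± 0.093) and Dhx58 was higher only with the block (0.40 ± 0.11 and 0.35 ± 0.11). The factors Irf7 (-0.75 ± 0.18) in GFP LNA and Irf9 (-0.42 ± 0.16) in SNORA73 LNA livers were lower, and both were lower in both groups with the block, as was Stat2 (-0.21 ± 0.073 and -0.29 ± 0.075). Irf1 lay at 0.05 ± 0.16 in each group.

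**Figure D4:**
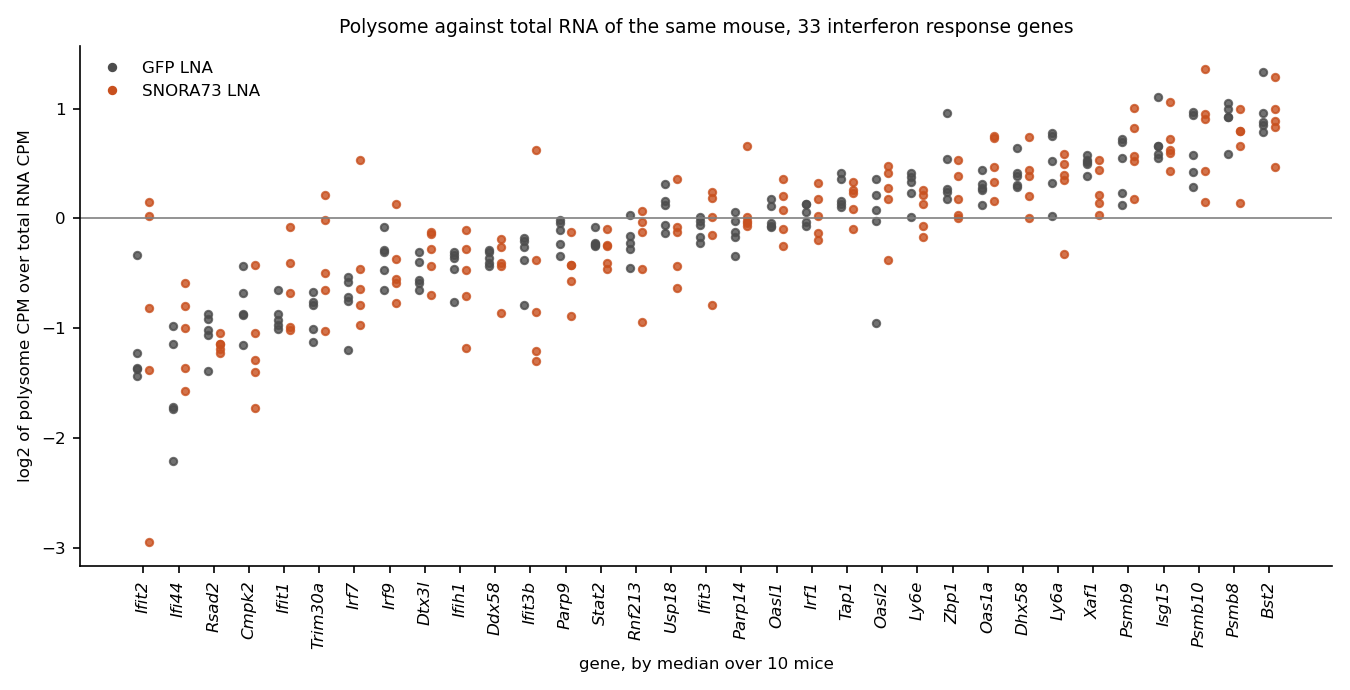
The log2 ratio of polysome to total RNA CPM in the same mouse (y axis, normalized together) is plotted for the 33 genes (x axis, ordered by median), with GFP LNA mice in grey and SNORA73 LNA mice in orange. The points of Rsad2 lie between -1.39 and -0.87 and those of Bst2 between 0.47 and 1.33, with overlapping LNA groups in both genes.

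The change of this ratio with SNORA73 LNA was 0 called of 33, by edgeR with and without the replicate block, by limma-voom and by DESeq2. Of all 13795 genes, edgeR called 1 with and 1 without the block (0.00725% each), limma-voom 0 and DESeq2 7 (5 higher and 2 lower). Before adjustment, 0 of the 33 had a p under 0.05 without the block (2.91% of all genes) and 1 with it (8.03%), Parp9 (-0.33 ± 0.14, FDR 0.564). The 33 estimates ran from -0.34 ± 0.73 for Zbp1 to 0.49 ± 0.44 for Ifi44, with a median of -0.06 against -0.01 for all genes. The SEs of 0.19 to 0.73 with 5 mice per group set the size of a difference in polysome loading that could be detected.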

How the data were processed

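Livers of 10 mice gave 20 libraries. The authors trimmed reads with fastp (Phred quality of at least 15), removed rRNA reads with bowtie, and estimated transcript counts with kallisto, summed to genes by tximport. These estimated counts, not normalized, are what the authors deposited, and 0 columns were left without a sample. Here they were rounded to whole numbers. Symbols matched 51903 of 53028 identifiers. Genes with a CPM over 0.5 in at least 4 libraries of a fit, the filter of the study, were tested with edgeR 4.0.16 (quasi-likelihood, TMM, R 4.3.3), total and polysome RNA apart, with Benjamini-Hochberg FDR over all genes tested. The polysome comparisons used 1 fit of all 20 libraries. Printed CPM are TMM-normalized.

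Alternatives were limma-voom (limma 3.58.1), DESeq2 1.42.0, its size factors, library totals, no filter, 1 fit of 20 libraries, each mouse left out, 8 mice, and a replicate block. The labels give the total and polysome library of a mouse the same number, which is where the pairing comes from. Their deviations from the group means correlated at r = 0.15 to 0.75 (10 mice, across 12736 genes, which are not independent replicates), and 9 of 10 mice correlated best with their own number. Mice 9 and 10 were taken as those the study left out because, of the 25 possible pairs, leaving them out gave limma-voom fold changes nearest to those it lists; the 25 fits were made for this alone. The block together with the 8 mice was added after the data had been seen. The labels do not state separate litters or batches. The edgeR test was run on counts simulated from the means and spread fitted to these data.

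The 33 genes, the other lists and the named genes were chosen with earlier results of these data known. A gene of the 33 is given in every mouse if called in an LNA comparison over 10 or 8 mice, or if among the 2 of its role with the highest mean CPM in total RNA; others of the pathway are named if called there or highest in their list, and further values of the 33 were added after they were seen. Positions and promoters are from RefSeq for GRCm38.p6, which matches the GRCm38 build the submitters name. Genes were ranked by CPM only to pick or name the highest of a role or list. No transcript lengths were used, so such rankings are not corrected for length.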

Additional observations from a re-analysis of the deposited data

Results flagged for a closer look

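In 76 groups of 5 mice (19 genes given in every mouse, both RNAs, both LNAs), Dixon's test at its 95% level marked 11. Its nominal rate is about 1 in 20, and the share it marks over all genes was not computed. SNORA73 LNA mouse 10 was the outlying mouse in 10 of the 11, high in each. In total RNA this mouse was the highest of all 10 for 19.2% of all genes and the lowest for 19.0%. It is also the mouse taken as left out by the study on these same libraries. In total RNA these were Ifit1 (22.7 CPM, the others 10.5 to 12.3), Ifit3 (13.9 CPM, 8.02 to 9.48), Isg15 (22.8 CPM, 8.68 to 12.5), Zbp1 (23.8 CPM, 3.44 to 5.54), Rnf213 (58.6 CPM, 33.4 to 39.4), Stat2 (49.6 CPM, 23.9 to 28.3) and Parp9 (39.6 CPM, 22.2 to 25.0). In polysome RNA of the same mouse they were Isg15 (48.4 CPM, the others 13.4 to 19.0), Zbp1 (24.6 CPM, 4.69 to 8.17) and Stat2 (38.0 CPM, 20.8 to 25.5). The remaining one was GFP LNA mouse 9, low for Stat2 in total RNA at 23.2 CPM (the others 30.2 to 31.9). The genes share a pathway and the RNAs a liver, so the 11 are not independent. Zbp1 is among the 19 only through its call over the 8 mice. Its selection is therefore not independent of its marks in mouse 10. Kupffer cell, monocyte and neutrophil markers were also highest in mouse 10, and their part was not tested.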

How the results depend on the processing

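The count of 0 genes called in total RNA over 10 mice became 1 with DESeq2 (Ly6a, with 0.159% of all genes lower) and 4 (0.161%) over the 8 mice, and ranged from 0 to 1 when 1 mouse was left out, 1 without GFP LNA mouse 9 (Ly6a, 0.0763%). Without SNORA73 LNA mouse 10 alone, 0 were called but the median of the 33 went from -0.11 to -0.32. In polysome RNA the count of 0 became 2 with DESeq2 (Usp18 and Ly6a), 1 without the filter and 1 in a single fit of 20 libraries (Ly6a both times), settings in which 217, 66 and 221 of all genes were higher and 50, 6 and 75 lower, against 2 and 0, and stayed at 0 without any 1 mouse. For the change in polysome loading it was 0 in every alternative, with 0 to 0 when 1 mouse was left out. Genes called between polysome and total RNA in GFP LNA went from 14 (42.8% of all genes) to 23 (56.1%) with the replicate block. They ranged from 8 (without mouse 8, 34.6%) to 16 (without mouse 10, 44.4%) when 1 mouse was left out. In SNORA73 LNA they went from 10 (38.0% of all genes) to 20 (51.1%) with the block and to 16 (44.1%) with the block over 8 mice. Without 1 mouse they ranged from 7 to 11, where 30.2% to 39.0% of all genes were called. With the block, genes higher in both LNA groups went from 4 to 7 (16.2% to 22.5% of all genes) and genes lower in both from 5 to 11 (15.5% to 21.1%).

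Of the 19 genes given in every mouse, all LNA fold changes that turned sign were within 0.21 of 0 over 10 mice. In total RNA, limma-voom gave -0.21 for Zbp1 and -0.01 for Dtx3l, the 8 mice gave -0.82 for Zbp1, -0.15 for Rnf213, -0.23 for Stat2, -0.05 for Psmb8 and -0.27 for Dtx3l, and no filter gave -0.01 for Psmb8. Over 8 mice Dhx58 (-0.10), Irf1 (0.11), Tap1 (-0.15) and Parp14 (-0.11), not among the 19, turned too, as did Dhx58 (-0.13) and Irf1 (0.20) in polysome RNA. Library totals gave -0.07 for Rnf213, -0.09 for Stat2, -0.14 for Psmb8, -0.09 for Psmb10 and -0.13 for Dtx3l, a setting that moved the median of all genes to -0.14 in total and -0.17 in polysome RNA. In polysome RNA, library totals gave -0.06 for Oasl2, -0.14 for Rnf213 and -0.01 for Dtx3l, and Rnf213 was -0.01 with limma-voom, -0.004 without the filter and -0.16 over 8 mice. Polysome against total RNA in GFP LNA over 8 mice gave -0.03 for Oasl1 and -0.01 for Irf1. Without 1 mouse, the total RNA values ranged from -0.37 to 0.05 for Oasl2, from -0.66 to 0.42 for Zbp1, from -0.08 to 0.15 for Rnf213, from -0.23 to 0.005 for Ddx58, from -0.16 to 0.14 for Stat2, from -0.05 to 0.09 for Psmb8, from -0.04 to 0.12 for Psmb10, from -0.19 to 0.12 for Dtx3l and from -0.22 to 0.08 for Ly6e, and the polysome values from -0.23 to 0.05 for Ifit1, from -0.27 to 0.05 for Oasl1, from -0.86 to 0.10 for Zbp1, from -0.07 to 0.15 for Rnf213 and from -0.21 to 0.05 for Stat2. The cause was not tested. Depth limits the genes with low counts, down to 6 in a polysome library, and the same mice enter both RNAs, so neither comparison is independent of the other.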
